A study of Homo sapiens with 16 samples.

Results

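The genes described here are 9 genes of homologous recombination and the Fanconi anemia pathway, namely BRCA1, BRCA2, BARD1, PALB2, RAD51C, XRCC2, BRIP1, FANCA and FANCD2. They were taken by name from the 26364 genes counted in each cell line, by their known roles, and each of the 9 was counted in all 16 libraries. The choice was made with earlier results of these data known, so counts set against the shares of all genes are descriptive. Expression was measured by bulk RNA-seq in 2 cancer cell lines that respond to the estrogen 17beta-estradiol (E2). Ishikawa cells derive from a human endometrial adenocarcinoma, and T-47D cells from a human breast carcinoma. Cells of each line had been kept in phenol-red free RPMI-1640 with charcoal-stripped serum, which is low in hormones, and then received 10 nM E2 for 2, 4 or 8 h, or vehicle alone (0 h), with 2 replicates at each time. The comparisons ask how the level of these genes before E2 differed between the lines, and how it changed with time in E2. Each condition is 1 established line, and the labels do not say whether replicates were separate cultures, so p-values measure only the spread between these libraries. The 2, 4 and 8 h comparisons of a line share its 0 h libraries.

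Homologous recombination repairs a double-strand DNA break by copying the intact sister chromatid, and it is active mainly while DNA is being copied and afterwards, before division. BRCA1 and BARD1 form a heterodimer with ubiquitin ligase activity that helps start repair, PALB2 joins BRCA1 to BRCA2, and BRCA2 acts at resected single-stranded DNA. RAD51C and XRCC2 belong to a complex that acts at the same stage of repair. BRIP1 is a DNA helicase that binds BRCA1. FANCA belongs to the core complex that attaches ubiquitin to FANCD2 at crosslinked DNA. Inherited loss of BRCA1 or BRCA2 predisposes to breast and ovarian cancer, and transcripts of many of these genes are known to be more abundant in S phase. In bulk RNA, more cells in a phase and more RNA per cell cannot be told apart.

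The libraries held 41177912 to 58918642 counts in Ishikawa and 41223813 to 64148903 counts in T-47D. The breast marker GATA3 stood at 995 to 1200 CPM (counts scaled to library size) in T-47D and at no more than 0.0897 CPM in Ishikawa, whereas the endometrial marker PAX8 stood at 189 to 334 CPM in Ishikawa and at no more than 0.0485 CPM in T-47D. SPDEF, SOX17 and EMX2 also stood almost entirely in the line of their tissue. Other markers were less distinct, such as XBP1 (126 to 157 CPM in Ishikawa, 471 to 1260 in T-47D) and MECOM (106 to 163 and 32.2 to 44.5). ESR1, listed for both tissues, was higher at 0 h in Ishikawa (244 CPM) than in T-47D (164 CPM). GREB1, a classical E2 target, rose at 8 h by 1.65 ± 0.117 (SE) on the log2 scale in Ishikawa and by 2.15 ± 0.0502 in T-47D. The late Ishikawa libraries stood across their labels. The 8 h replicate 1 library was nearer to 4 h replicate 2 (root mean square difference 0.228 on the log2 scale over variable genes) than to 8 h replicate 2 (0.327), and 8 h replicate 2 was nearest to 4 h replicate 1 (0.196). The other 12 libraries were each nearest to their own replicate. Ishikawa values at 4 and 8 h are therefore also given with those 4 libraries as 1 group.

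The start regions of these genes are shown because E2F, the factor family that drives S phase genes, recognizes a word that several of them hold. RefSeq gives a window of 300 bases for each gene, 250 before the annotated start and 50 after it, on GRCh38.p14. The letters TTCCCGC, searched on both strands, were found in 5 of the 9 windows and in 6.55% of all 35116 windows in the table. The words searched were chosen after the windows had been seen, and a match describes letters only. In the 29-base stretches below, written 5′ to 3′ on the strand of the gene, capitals mark the match, which reads GCGGGAA on that strand:
BRCA1: aacggaaaagcGCGGGAAttacagataaa
BARD1: ccgtcccagacGCGGGAAgagcttggccg
XRCC2: tggcgttggtgGCGGGAAagttgagtctc
BRIP1: gggggcgggagGCGGGAAttcgtctcggg
FANCD2: cgtcgggcctgGCGGGAAagtcgaaaact
The stretches lie at chr17:43125394-43125422 (BRCA1, minus strand), chr2:214809662-214809690 (BARD1, minus), chr7:152676103-152676131 (XRCC2, minus), chr17:61863509-61863537 (BRIP1, minus) and chr3:10026424-10026452 (FANCD2, plus).

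A second E2F word, TTGGCGC, was found in the FANCA window alone among the 9 and in 3.04% of all windows. CCAAT was found in 4 of the 9 (BRCA1, PALB2, BRIP1, FANCA) and in 34.6% of all, the cyclic AMP response core TGACGT in 4 of the 9 (BRCA1, RAD51C, XRCC2, FANCD2) and in 7.98% of all, and the GC box GGGCGG in 5 of the 9 and in 45% of all. An estrogen response element, searched as GGTCA and TGACC with 3 bases between them, was found in none of the 9 windows and in 0.057% of all, and the single arm GGTCA in BRCA2, PALB2 and 37.4% of all. No match says only that those letters were not within this window. The 250 bases before the XRCC2 start, at chr7:152676142-152676391 on the minus strand, are shown in full as the region of the gene with the largest fold change among the 9. Capitals mark TGACGT on either strand and GGGCGG, which here overlap themselves:
XRCC2: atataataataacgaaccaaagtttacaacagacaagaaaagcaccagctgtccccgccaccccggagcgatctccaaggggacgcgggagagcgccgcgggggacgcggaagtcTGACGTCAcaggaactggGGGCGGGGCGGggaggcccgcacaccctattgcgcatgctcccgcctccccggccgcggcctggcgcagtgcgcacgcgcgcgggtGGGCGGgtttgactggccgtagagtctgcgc

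Before E2, 5 of the 9 genes were lower in T-47D than in Ishikawa, 1 was higher and 3 did not pass the test, in an edgeR quasi-likelihood fit of all 16 libraries with Benjamini-Hochberg adjustment over 17090 genes. The lines differed widely, since 42.4% of all genes tested were lower in T-47D and 39.5% were higher, so 6 called of 9 is below the share among all genes. XRCC2 differed by the largest amount, with counts of 1198 and 1256 (26 and 27 CPM) in the Ishikawa 0 h libraries and 235 and 203 (5.29 and 4.92 CPM) in those of T-47D. The T-47D level was 0.202 times the Ishikawa level (log2 difference -2.31 ± 0.118, SE, adjusted p = 2.16e-13). BRCA2 stood at 60.8 and 51.5 CPM in Ishikawa and at 21 and 20 CPM in T-47D (-1.39 ± 0.0958, adjusted p = 2.95e-11). BARD1 was lower in T-47D by -1.02 ± 0.0798, FANCA by -0.98 ± 0.0895 and BRIP1 by -0.86 ± 0.0855 on the log2 scale. CPM values are scaled within each line unless stated otherwise, whereas this test scales both lines together.

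PALB2 was the gene that was higher in T-47D, by 0.29 ± 0.084 on the log2 scale (adjusted p = 0.00378), with 26.8 and 23.4 CPM in Ishikawa and 29 and 29.5 CPM in T-47D. Without Ishikawa 0 h replicate 2 the PALB2 difference was 0.19 with an adjusted p of 0.0725. BRCA1, which pairs with BARD1 in the cell, did not pass the test. Scaled across both lines, BRCA1 had 69.2 and 66.1 CPM in Ishikawa and 74.9 and 69.8 CPM in T-47D. The 95% interval of its log2 difference ran from -0.05 to 0.24. That of RAD51C ran from -0.23 to 0.12 and that of FANCD2 from -0.1 to 0.11. Among 28 S phase genes, a list of replication and nucleotide supply factors such as MCM2 and PCNA, 23 were lower in T-47D at 0 h and 2 were higher, with a median log2 difference of -0.6 against -0.05 over all genes. Its part in the lower levels of the 5 genes was not tested.

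Levels of different genes were compared per length of the canonical transcript, as FPKM, the CPM scaled across both lines and divided by the length in kilobases. In Ishikawa at 0 h FANCD2 was first at 13.9 ± 0.0783 FPKM (SD, n = 2), followed by BARD1 at 10.5 ± 1.17, BRCA1 at 9.55 ± 0.303 and FANCA at 9.34 ± 1.21, whose libraries overlapped. RAD51C followed at 8.03 ± 0.115, then PALB2 at 6.11 ± 0.624 and BRIP1 at 5.99 ± 0.638, which overlapped, then XRCC2 at 5.42 ± 0.11 and BRCA2 at 4.59 ± 0.563. In T-47D FANCD2 was again first at 13.9 ± 0.154 FPKM, then BRCA1 at 10.2 ± 0.517, RAD51C at 7.74 ± 0.339 and PALB2 at 7.47 ± 0.0696, the last pair with overlapping libraries. BARD1 at 5.2 ± 0.641 and FANCA at 4.73 ± 0.553 overlapped too, and BRIP1 at 3.29 ± 0.258, BRCA2 at 1.75 ± 0.0655 and XRCC2 at 1.1 ± 0.0598 were apart and last. The exons used in counting are not given, and the order depends on them. With all exonic bases of each gene in place of the canonical transcript, BARD1 came first in Ishikawa at 7.61 FPKM and RAD51C fell to last there at 1.25 FPKM, while in T-47D FANCD2 stayed first at 6 and XRCC2 last at 0.81.

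**Figure D1:**
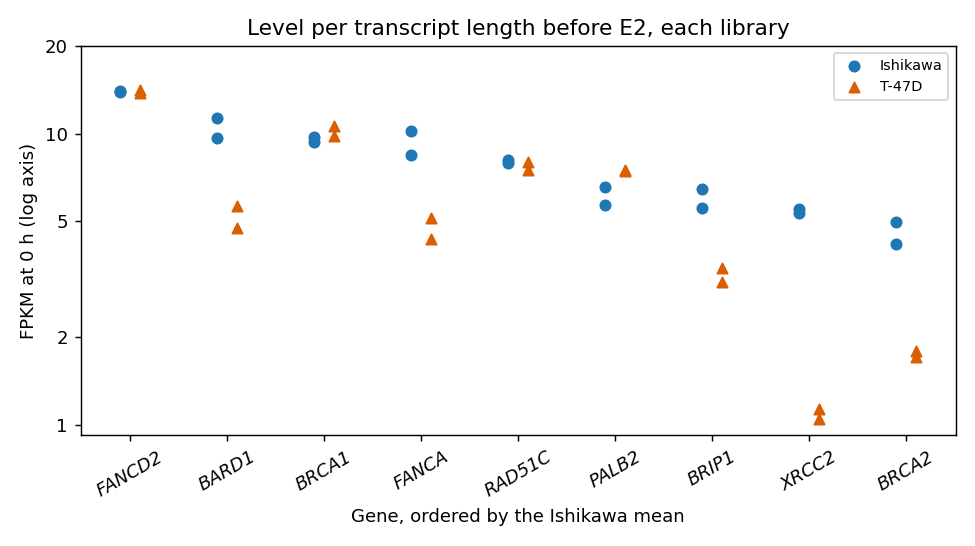
Level of each gene per canonical transcript length at 0 h (vertical axis, FPKM on a log axis), with 1 point per library, circles for Ishikawa and triangles for T-47D, and genes ordered by the Ishikawa mean. The points of BRCA1, RAD51C and FANCD2 lie side by side in the lines, whereas the XRCC2 means are 5.42 FPKM in Ishikawa and 1.1 FPKM in T-47D.

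In T-47D, E2 was followed by higher levels of 8 of the 9 genes at 8 h, all except FANCD2. None passed the test at 2 h, and 5 did at 4 h. None of the 9 was lower at any time. Of all genes tested in T-47D, 4.90% were higher and 4.40% lower at 2 h, 11.1% higher and 10.4% lower at 4 h, and 15.4% higher and 14.3% lower at 8 h. Since the 9 genes were chosen with earlier results known, these shares are given for description only. The median log2 fold change of the 9 genes was 0.09 after 2 h, 0.18 after 4 h and 0.37 after 8 h, against -0.01, 0 and 0 over all 15594 genes. At 2 h, all 9 estimates were above 0, 1 gene (BARD1) had an unadjusted p under 0.05 in edgeR, and DESeq2 called 0. Without 0 h replicate 1, BARD1 was called at 2 h (0.34, adjusted p = 0.00613). The 4 h count fell to 2 without either 4 h library and to 3 without either 0 h library, and BARD1 was the only gene of the 9 with a 4 h adjusted p below 0.01. BRCA1, BRCA2, RAD51C and XRCC2 each lost the 4 h call without at least 2 of the single libraries.

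In T-47D, BRCA1 had 73 and 68.4 CPM before E2, then 74.3 and 76.2 after 2 h, 78.7 and 81.5 after 4 h, and 90.1 and 98.1 after 8 h. Libraries at each later time were above both 0 h libraries. The rise was 0.18 ± 0.0542 at 4 h (adjusted p = 0.0244) and 0.41 ± 0.0542 at 8 h (adjusted p = 1.37e-05) on the log2 scale, the latter 1.33-fold. BARD1, the partner of BRCA1, had 30.1 and 25.5 CPM before E2, then 31.4 and 32.7 after 2 h, 38.8 and 38.2 after 4 h, and 40.9 and 43.3 after 8 h. Its groups did not overlap with 0 h at any later time, and it rose by 0.47 ± 0.0729 at 4 h (adjusted p = 0.000134) and by 0.6 ± 0.0731 at 8 h (adjusted p = 6.23e-06), which is 1.51-fold. Groups of 2 libraries can stand apart without a call. In Ishikawa, FANCD2 was below both 0 h libraries at 2, 4 and 8 h and RAD51C above them at 2 h, and neither was called. The share of all genes without overlap was not computed.

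BRCA2 had 21 and 20 CPM before E2, then 22.2 and 21.4 after 2 h, 26.6 and 22.5 after 4 h, and 25.7 and 29.8 after 8 h. All later libraries were above both 0 h libraries, although the replicates at 4 and 8 h spread more widely than those at 0 h. BRCA2 rose by 0.44 ± 0.0903 at 8 h (adjusted p = 0.00124). Its 4 h rise of 0.26 ± 0.0902 passed narrowly (adjusted p = 0.0451), with an adjusted p of 0.0625 under a replicate block and 0.0532 in a fit of only the groups compared, and it was 0.15 without 4 h replicate 1 (adjusted p = 0.438). The call was also lost when any single library of the 0 h or 2 h groups was left out. PALB2, the bridge between BRCA1 and BRCA2, had 29 and 29.5 CPM before E2, then 29.2 and 33.5 after 2 h, 34.8 and 31.5 after 4 h, and 32.5 and 35.3 after 8 h. It passed the test at 8 h only narrowly (0.21 ± 0.077, adjusted p = 0.0438), and its adjusted p was 0.0555 under DESeq2, 0.233 without 8 h replicate 2, and 0.105 or 0.085 without 0 h replicate 1 or 2.

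XRCC2 changed by the largest fold of the 9 genes while its level was the lowest. In T-47D its counts were 235 and 203 before E2, then 235 and 267 after 2 h, 443 and 397 after 4 h, and 477 and 401 after 8 h, or 5.29, 4.92, 4.89, 6.26, 6.9, 7.65, 9.54 and 8.01 CPM in the same order. The 2 h libraries overlapped with 0 h and those at 4 and 8 h did not. XRCC2 rose by 0.51 ± 0.14 at 4 h (adjusted p = 0.0143) and by 0.78 ± 0.139 at 8 h (adjusted p = 0.000322), which is 1.72-fold, with a 95% interval of 0.49 to 1.07 on the log2 scale. Even so, the higher of its 8 h libraries remained below the lowest Ishikawa library, at 25 CPM. RAD51C had 18.7 and 20 CPM before E2, then 21.4 and 20.9 after 2 h, 22.2 and 23.5 after 4 h, and 24.7 and 25 after 8 h, with no overlap with 0 h at any time. It rose by 0.24 ± 0.0743 at 4 h (adjusted p = 0.029) and by 0.36 ± 0.0746 at 8 h (adjusted p = 0.0013).

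The helicase gene BRIP1 and the core complex gene FANCA passed the test at 8 h and not at 4 h. BRIP1 had 27.7 and 24.9 CPM before E2, then 27.3 and 25.8 after 2 h, 28.6 and 26.6 after 4 h, and 31.1 and 34 after 8 h, so that its 8 h group alone was clear of 0 h. It rose by 0.31 ± 0.0757 at 8 h (adjusted p = 0.005), and without 8 h replicate 2 or 0 h replicate 2 the adjusted p was 0.0532 or 0.0609. FANCA had 23 and 27.4 CPM before E2, then 24.4 and 26.3 after 2 h, 28.3 and 28.6 after 4 h, and 33.2 and 32 after 8 h. It rose by 0.37 ± 0.0794 at 8 h (adjusted p = 0.00152). Its 4 h estimate of 0.18 ± 0.0793 became 0.31 without 0 h replicate 2 and 0.06 without 0 h replicate 1. With single libraries left out, the genes that made up the 4 h count therefore changed as well as their number. FANCD2, the target of the core complex, had 69.8 and 69.1 CPM before E2, then 69 and 71.3 after 2 h, 70.3 and 71.1 after 4 h, and 74.3 and 75.1 after 8 h. Its 8 h libraries were above those at 0 h, but the difference of 0.11 ± 0.0478 did not pass the test (adjusted p = 0.111), and its 95% interval of 0 to 0.21 lay below the estimate of every other gene of the 9 except PALB2, which was 0.21 as well.

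Comparing 8 h directly with 2 h in T-47D, 7 of the 9 genes were higher, where 16.8% of all genes were called in either direction. The 0 h libraries are not compared here, but they share the fit, its scaling and its estimate of the spread. XRCC2 was higher by 0.66 ± 0.137, BARD1 by 0.39 ± 0.0721, FANCA by 0.36 ± 0.0791, BRCA2 by 0.35 ± 0.0896, BRCA1 by 0.32 ± 0.0539, BRIP1 by 0.29 ± 0.0754 and RAD51C by 0.23 ± 0.0738 on the log2 scale. PALB2 (0.12 ± 0.0764, adjusted p = 0.352) and FANCD2 (0.09 ± 0.0477, adjusted p = 0.219) did not pass. The count fell to 3 without 2 h replicate 1 and to 4 without 2 h replicate 2 or without 8 h replicate 2.

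**Figure D2:**
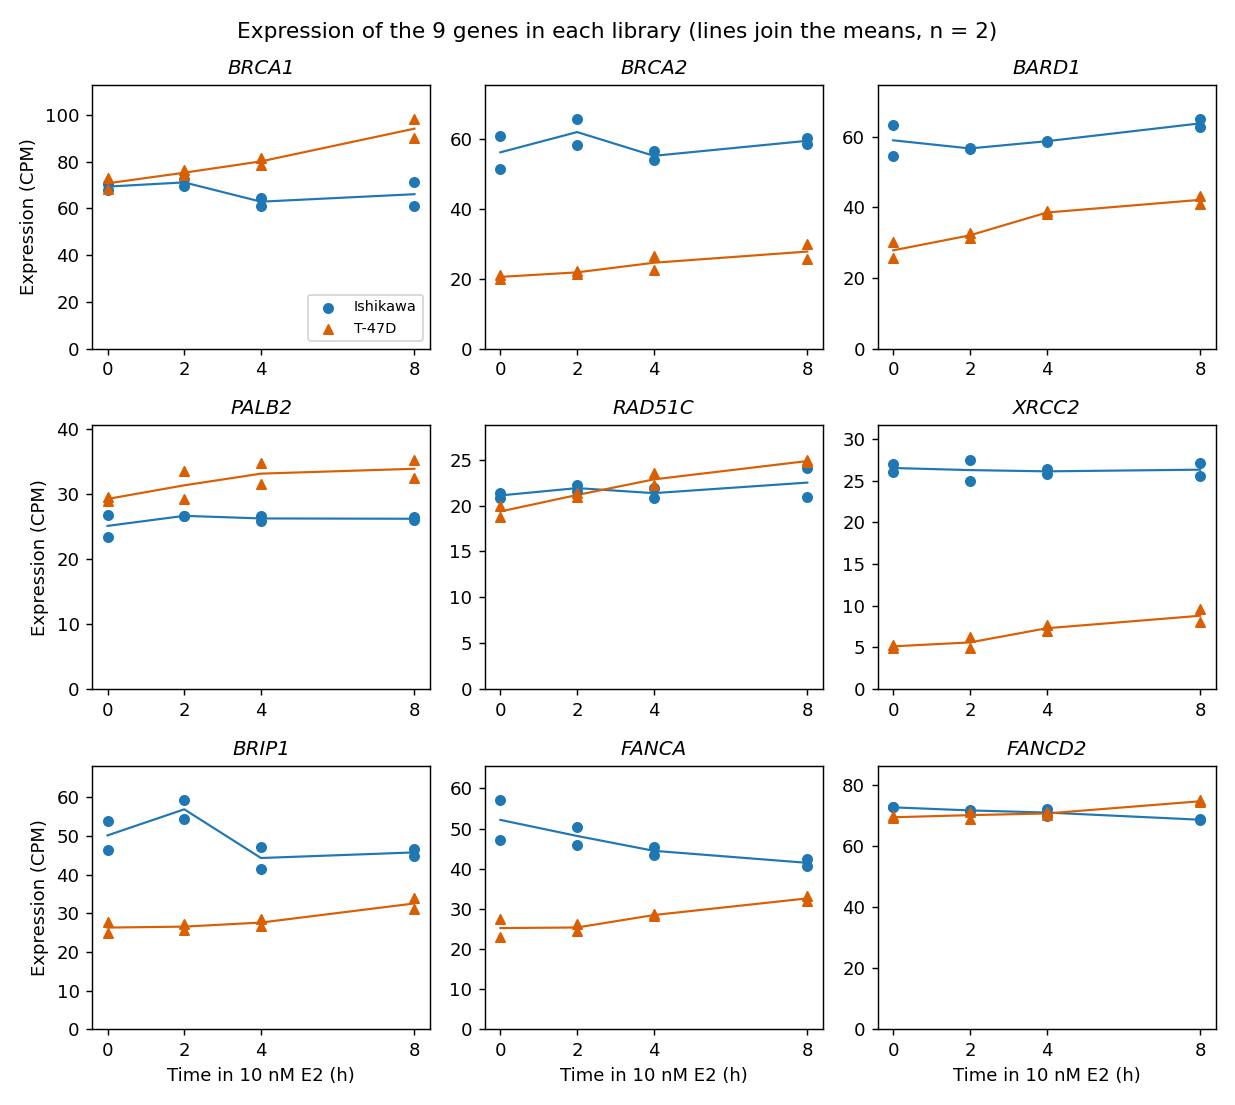
Expression of each gene in each library (vertical axis, CPM scaled within each line, from 0) against time in 10 nM E2 (horizontal axis, h), with circles for Ishikawa, triangles for T-47D and lines through the means of 2 replicates. T-47D points climb for 8 genes, as for BRCA1 from 73 and 68.4 CPM at 0 h to 90.1 and 98.1 CPM at 8 h, while the FANCD2 points of both lines stay between 68.5 and 75.1 CPM.

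In Ishikawa, 1 of the 9 genes was called at 8 h, and it was lower. None was called at 2 or 4 h. Of the 15787 genes tested, 2.61% were higher and 1.74% lower at 2 h, 7.66% higher and 6.60% lower at 4 h, and 12.0% higher and 10.1% lower at 8 h, so a count of 1 of 9 lower is near the share among all genes. FANCA had 47.2 and 57.1 CPM before E2, then 45.9 and 50.4 after 2 h, 45.5 and 43.4 after 4 h, and 40.6 and 42.3 after 8 h. Both late groups were below both 0 h libraries, and FANCA fell by 0.33 on the log2 scale at 8 h (SE 0.0861, adjusted p = 0.0124). With the 4 late libraries as 1 group it fell by 0.28 (SE 0.0749, adjusted p = 0.012). The 0 h replicates were far apart, and without 0 h replicate 2, the higher one, the 8 h difference was -0.19 with an adjusted p of 0.173, while without 8 h replicate 1 it was -0.3 with an adjusted p of 0.0708.

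None of the other 8 genes was called in Ishikawa. Over its 8 libraries XRCC2 lay between 25 and 27.5 CPM, PALB2 between 23.4 and 26.8, RAD51C between 20.8 and 24.1, FANCD2 between 68.5 and 72.7, BARD1 between 54.5 and 64.9, BRCA2 between 51.5 and 65.6 and BRIP1 between 41.5 and 59.3 CPM, a spread like that of FANCA. BRCA1 had 70.6 and 68 CPM before E2, then 72.6 and 69.6 after 2 h, 61.1 and 64.6 after 4 h, and 71.2 and 60.9 after 8 h. Its 4 h libraries were below those at 0 h, while those at 8 h overlapped, and its 8 h difference of -0.07 ± 0.0739 had a 95% interval of -0.22 to 0.09. BRIP1 had 53.8 and 46.5 CPM before E2, then 54.5 and 59.3 after 2 h, 41.5 and 47.1 after 4 h, and 44.8 and 46.7 after 8 h. Its 2 h libraries were the highest, with an unadjusted p under 0.05 and an adjusted p of 0.278. With the 4 late libraries as 1 group the log2 fold changes of these 8 genes ran from -0.16 (BRIP1, adjusted p = 0.12) and -0.1 (BRCA1, adjusted p = 0.257) to 0.06 (BARD1, PALB2 and RAD51C), and none was called.

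The 95% intervals bound what the Ishikawa data could hold at 8 h. Apart from FANCA, the upper bounds ran from 0.04 on the log2 scale for BRIP1 and FANCD2 to 0.29 for RAD51C, and the lower bounds from -0.31 for BRIP1 to -0.04 for BARD1. At 2 h and at 4 h, 1 gene each had an unadjusted p under 0.05 in edgeR (BRIP1 and FANCA), and DESeq2 called 0. Between 8 h and 2 h, 0 of the 9 were called by edgeR and 1 by DESeq2, where 2.24% of all genes were called in either direction, and 3 genes (BARD1, BRIP1 and FANCA) had an unadjusted p under 0.05. That count was 1 without any single library of the Ishikawa 4 h or 0 h groups. Without 0 h replicate 1, BARD1 was called higher at 8 h (0.23, adjusted p = 0.0203) and FANCA lower at 4 h (-0.36, adjusted p = 0.00874).

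**Figure D3:**
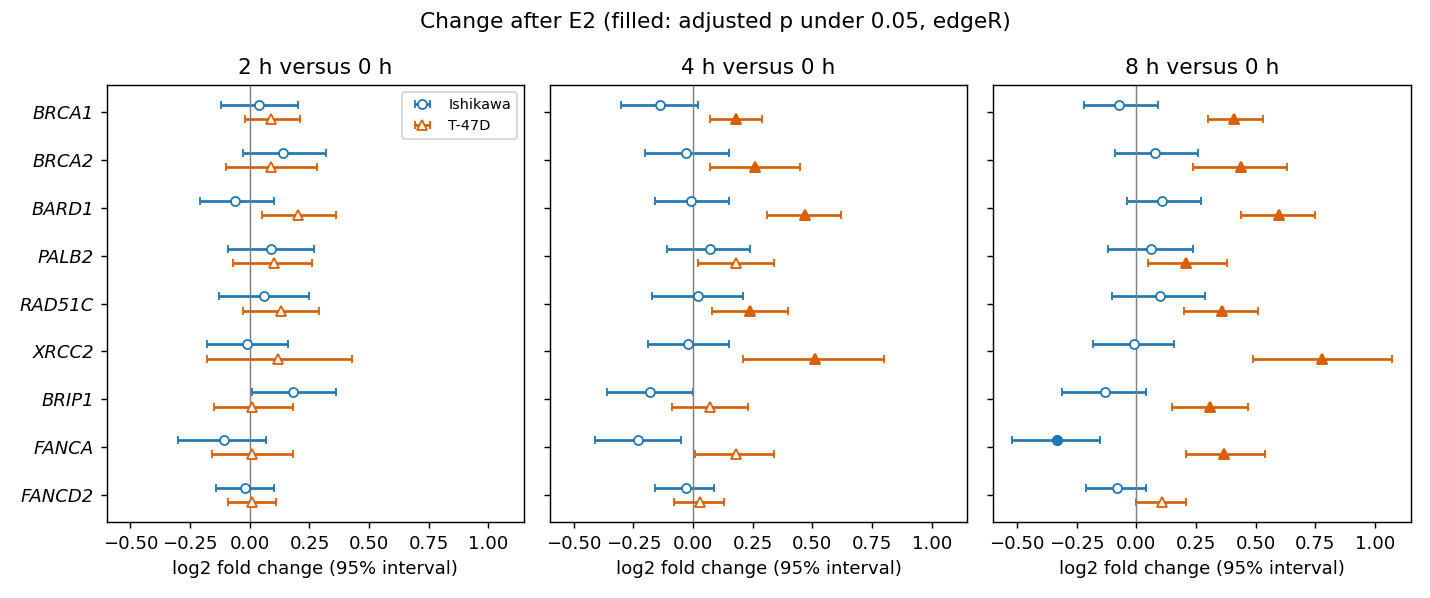
Log2 fold change of each gene against 0 h (horizontal axis) at 2, 4 and 8 h, with 95% intervals, circles for Ishikawa and triangles for T-47D, and filled symbols for an adjusted p under 0.05 in edgeR. At 8 h the T-47D estimates run from 0.11 for FANCD2 to 0.78 for XRCC2 and the Ishikawa estimates from -0.33 for FANCA to 0.11 for BARD1.

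The response was tested for a difference between lines in the fit of all 16 libraries. The log2 fold change at 8 h was higher in T-47D for 5 of the 9 genes, that at 4 h for 2 and that at 2 h for none, against 10.0%, 6.03% and 2.67% of all genes called in either direction. At 2 h, 1 gene (BARD1) had an unadjusted p under 0.05, and DESeq2 called 0. XRCC2 had the largest estimate at 8 h, with a log2 fold change 0.79 ± 0.161 higher in T-47D (adjusted p = 0.00265), and FANCA, with estimates on opposite sides of 0, followed at 0.7 ± 0.125 (adjusted p = 0.000738). BRCA1 and BARD1 each differed by 0.48, with SEs of 0.0965 and 0.11 (adjusted p = 0.00252 and 0.00697). BRIP1 differed by 0.44 ± 0.119 (adjusted p = 0.0226), a call lost without any of 5 single libraries. BRCA2, RAD51C, PALB2 and FANCD2 did not pass, with 95% intervals of 0.07 to 0.63, 0.01 to 0.5, -0.09 to 0.4 and 0.04 to 0.33. With the late Ishikawa libraries as 1 group, 6 genes were called at 8 h, BRCA2 being the addition (0.41, adjusted p = 0.0436). At 4 h, 3 were then called and BRCA1 was not (0.29, adjusted p = 0.0607). The 4 h call of BRCA1 was narrow (0.33 ± 0.097, adjusted p = 0.0466), with an adjusted p of 0.0504 under DESeq2 and 0.0753 under RLE scaling. Without T-47D 0 h replicate 2 the 8 h count was 3, BARD1 then having an adjusted p of 0.0543, and the 4 h count was 1 without any of 8 single libraries and under DESeq2.

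Within each line the 9 genes were also set against one another. For each gene, the log2 CPM over the 8 libraries of a line was correlated with the mean profile of the other 8 genes. Pearson r ran from 0.761 for PALB2 to 0.965 for BRCA1 in T-47D, and from -0.0526 for FANCA to 0.696 for BRCA2 in Ishikawa. These values describe 8 libraries that share the treatment times, scaling and depth. Over all 16 libraries with each line centred, and among 8776 other genes with a mean of at least 10 CPM in both lines, the profiles most like the mean of the 9 were those of HELLS (r = 0.963), BLM (0.961), TENM3 (0.939), ZWINT (0.938) and DNA2 (0.932). HELLS is a chromatin remodelling helicase, BLM the Bloom syndrome helicase, DNA2 a nuclease-helicase of end resection, and ZWINT a kinetochore protein. At 8 h in T-47D they rose by 0.61 ± 0.0636, 0.47 ± 0.0869, 0.67 ± 0.0383, 0.2 ± 0.0438 and 0.31 ± 0.0726 on the log2 scale in that order, and in Ishikawa none of these 5 passed the test. Because they were picked for their likeness to the 9 genes in the same libraries, these changes follow largely from the choice and are no separate result. BLM and DNA2 are also in the homologous recombination list used below.

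The wider pathway was described from a list of 40 other homologous recombination genes, 39 of which passed the filter on low counts. Like the 9 genes, the lists were chosen with earlier results of these data known. For this list and those below, the shares among all genes at 8 h were 15.4% higher and 14.3% lower in T-47D. In Ishikawa they were 12.0% and 10.1%, or 13.5% and 12.2% with the late libraries as 1 group. In T-47D at 8 h, 21 of 39 were higher and 2 lower, with a median log2 fold change of 0.24 against 0 over all genes. The largest rise was that of RBBP8, which encodes CtIP, the factor that starts resection of broken ends, at 1.25 ± 0.0654 (adjusted p = 1.22e-10). RMI1, a subunit of the BLM dissolution complex, rose by 0.6 ± 0.0999, the checkpoint kinase gene CHEK2 by 0.59 ± 0.0934, and the nuclease genes EME1 and EXO1 by 0.5 each. The genes that fell, named after their values were seen, were SWSAP1 (-0.43 ± 0.116) and RECQL5 (-0.16 ± 0.058). In Ishikawa at 8 h, 3 of 39 were higher and 5 lower, with a median of -0.07 (2 and 4 with the late libraries as 1 group), counts near or below the shares among all genes. RBBP8 rose there as well, by 0.89 ± 0.0642 (adjusted p = 1.92e-07), and NBN, of the break-sensing MRN complex, by 0.37 ± 0.0665. RECQL5 (-0.56 ± 0.0986), RMI2 (-0.41 ± 0.0999) and EME1 (-0.33 ± 0.104) fell. RBBP8 was thus called in both lines, and had passed at 2 h in each, at 0.52 ± 0.064 in Ishikawa and 0.67 ± 0.0666 in T-47D, when none of the 9 genes had. NBN was also higher in T-47D at 8 h (0.36 ± 0.0595), and had passed there at 2 h (0.21 ± 0.0598). CHEK1 was higher at 8 h in both lines too, by 0.22 ± 0.071 in Ishikawa and 0.42 ± 0.0617 in T-47D.

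Of 15 other Fanconi anemia genes, 7 were higher and 0 lower in T-47D at 8 h, with a median of 0.2. They included FANCM (0.44 ± 0.0965), FANCB (0.42 ± 0.149), the ligase gene FANCL (0.39 ± 0.105), its partner UBE2T (0.3 ± 0.0629), and USP1 (0.28 ± 0.066), whose product removes ubiquitin from FANCD2. In Ishikawa 2 were higher (FANCM and USP1, at 0.28 ± 0.0923 and 0.25 ± 0.0653) and 2 lower (FANCG and FAAP20, at -0.29 ± 0.0726 and -0.25 ± 0.077), and with the late libraries as 1 group 2 were higher and 1 lower. Of 17 end joining genes tested in T-47D, the pathway that rejoins breaks without a template, 3 were higher (RIF1 0.46 ± 0.0622, PRKDC 0.3 ± 0.0344, FAM35A 0.28 ± 0.0524) and 0 lower, a share near the 15.4% of all genes, with a median of 0.07. In Ishikawa 2 of 18 were higher, FAM35A (0.36 ± 0.0681) and RIF1 (0.33 ± 0.0632), and 2 lower, and with the late libraries as 1 group 2 were higher and 3 lower. Of 10 mismatch repair genes, 6 were higher in T-47D, among them PMS1 at 0.61 ± 0.0874, PCNA at 0.51 ± 0.0553 and EXO1, which is also in the homologous recombination list. In Ishikawa 1 of the 10, PMS2, was lower (-0.44 ± 0.0774), and the counts were 0 higher and 1 lower with the late libraries as 1 group. The Ishikawa counts of the Fanconi anemia, end joining and mismatch repair lists were near or below the shares among all genes.

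S phase genes moved with the 9 genes in T-47D. At 8 h, 26 of 28 were higher and 0 lower, with a median of 0.45, and at 4 h 16 were higher with a median of 0.18, where 11.1% of all genes were higher at 4 h. Among them, the helicase loader CDC6 rose at 8 h by 0.7 ± 0.0553, MCM10 by 0.78 ± 0.0559 and E2F1 by 0.63 ± 0.0591. At 2 h, 0 of 28 passed. Of 15 mitosis genes, 5 were higher at 8 h, with a median of 0.11. In Ishikawa at 8 h, 1 of 28 S phase genes was higher (RFC3, 0.23 ± 0.0731) and 4 were lower, E2F1 among them (-0.25 ± 0.0694), with a median of -0.02, and with the late libraries as 1 group 2 were higher and 3 lower. Of the mitosis genes, CDK1 was higher and AURKB lower there, and with the late libraries as 1 group 1 was higher and 0 lower. The part of S phase in the change of the 9 genes was not tested.

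**Figure D4:**
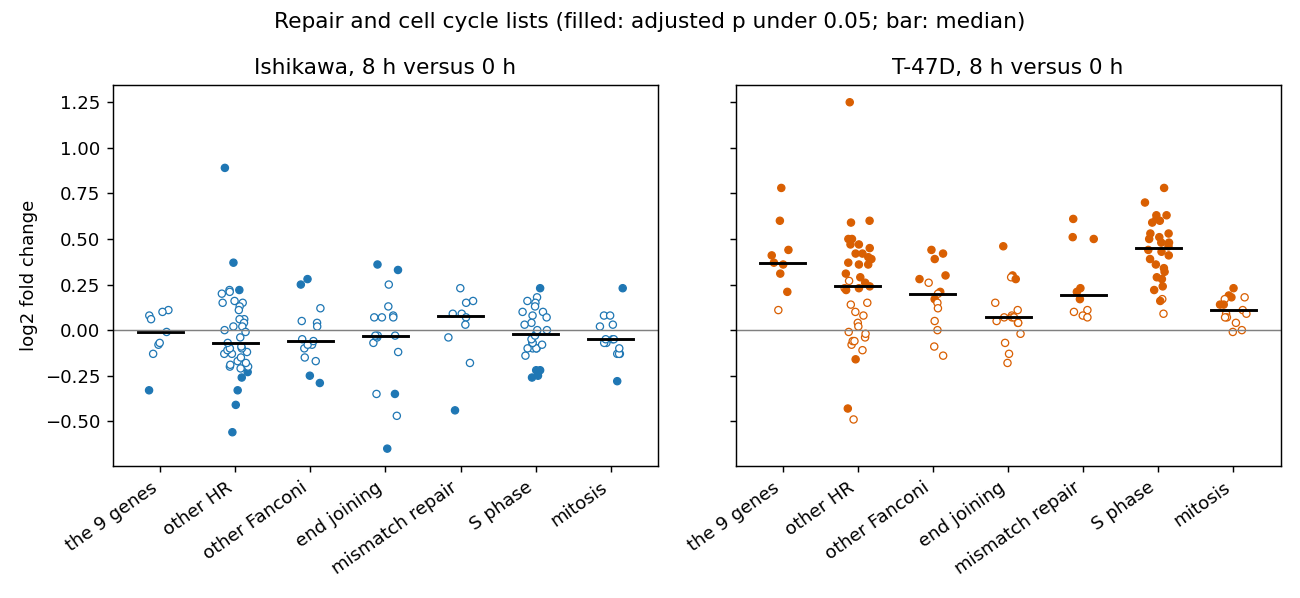
Log2 fold change at 8 h against 0 h (vertical axis) of the 9 genes and of 6 lists, with 1 point per gene, filled for an adjusted p under 0.05, and a bar at each median, for Ishikawa and T-47D. In T-47D the medians of the 9 genes (0.37) and of the S phase genes (0.45) are the highest, while in Ishikawa the medians lie between -0.07 and 0.08.

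The T-47D response was also listed by whether the window of a gene holds the word GCGGGAA shown above. At 8 h the 5 genes that hold it spanned log2 fold changes from 0.11 (FANCD2) to 0.78 (XRCC2), and the 4 that do not, BRCA2, PALB2, RAD51C and FANCA, spanned 0.21 to 0.44 and lay within that range. In Ishikawa at 8 h the groups spanned -0.13 to 0.11 and -0.33 to 0.1. Of the 4 genes without GCGGGAA, FANCA holds the second E2F word, TTGGCGC. The words were chosen after the windows had been seen, and their part in the response was not tested.

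Neighbouring genes bear on how the counts can be read, since the libraries were made with a directional kit but the strand setting used in counting is not given. In GENCODE annotation on GRCh37, the canonical transcripts lie at chr17:41196312-41277381 on the minus strand for BRCA1 (23 exons), chr13:32889645-32974405 on the plus strand for BRCA2 (27 exons), chr17:56769963-56812972 on the plus strand for RAD51C (9 exons) and chr16:89803957-89883055 on the minus strand for FANCA (43 exons). TEX14, a gene of germ cell intercellular bridges, starts 547 bases from RAD51C on the opposite strand. It rose in T-47D at 8 h by 2.65 ± 0.239 (adjusted p = 1.6e-07), a larger change than that of RAD51C, with a range of 0.742 to 6.68 CPM over the T-47D libraries, and in Ishikawa its difference was -0.12 ± 0.339. ZNF276 shares 3377 bases with FANCA on the opposite strand and stood at 15.5 to 21.5 CPM in T-47D (0.28 ± 0.108 at 8 h, adjusted p = 0.0644). If strand was not used, it is uncertain how reads in the shared bases were assigned, and FANCA counts may be affected in either direction. NBR2, which starts 187 bases from BRCA1, differed by -0.07 ± 0.117 in T-47D at 8 h (adjusted p = 0.723), where BRCA1 rose. DCTN5, which starts 156 bases from PALB2, differed by -0.03 ± 0.0444 in T-47D and rose by 0.19 ± 0.0559 in Ishikawa (adjusted p = 0.0255). The antisense gene FANCD2OS did not exceed 0.112 CPM in any library. BRCA1 and FANCD2 have pseudogene copies, BRCA1P1 and FANCD2P2, that were not counted separately here, so reads shared with them are uncertain.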

How the data were processed

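Raw counts per gene from bulk poly(A) RNA-seq of 16 libraries were used. As deposited by the authors, these are whole-number counts made by featureCounts on UCSC Known Genes, after alignment with HISAT2 to hg19 and conversion with SAMtools. The submitters' processing notes also name DESeq2. Versions, the strand setting and the handling of read pairs are not given in the sources used here. Of counts from 1 to 10, 71.2% to 74.6% in any library were even, so reads of a pair may have been counted separately. Samples were grouped by the time and line in their labels.

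The main test was the quasi-likelihood F-test of edgeR 4.0.16 (R 4.3.3) with TMM scaling and its default filter, fitted per line with time as a factor over 15787 (Ishikawa) or 15594 (T-47D) genes, and jointly over 17090 genes for differences between lines. Genes were called at a Benjamini-Hochberg adjusted p below 0.05. CPM values were scaled within a line, and FPKM across lines with GENCODE transcript lengths. Errors of log2 fold changes are SEs with 95% intervals from the fit. DESeq2 1.42.0, other scaling, filters and thresholds, a replicate block and omission of each library were tried, and the test was checked on simulated data. Depth was at least 41177912 counts per library, and each of the 9 genes had at least 203 counts in every library.

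The 9 genes and all lists were chosen with earlier results of these data known. Genes named from a list were at most 5 per line with the largest absolute change at 8 h among those called, plus the genes of the homologous recombination list that fell in T-47D or were higher in both lines (named after their values were seen), neighbours, GREB1 and PGR as treatment checks (PGR rose at 8 h by 3.75 in Ishikawa and 1.09 in T-47D on the log2 scale), and the 5 genes most alike in profile. The leukocyte markers PTPRC and CD3E and the endothelial markers PECAM1 and CDH5 did not exceed 0.146 CPM in any library. The other leukocyte marker, CD68, stood at 1.53 to 2.43 CPM in Ishikawa and 2.13 to 3.64 CPM in T-47D. COL1A1, listed for fibroblasts, stood at 150 to 282 CPM in Ishikawa and 69.7 to 90.4 CPM in T-47D. Of the other fibroblast markers, COL3A1 did not exceed 7.38 CPM, COL1A2 1.5 CPM and DCN 0.849 CPM in any library. Sequences came from RefSeq on GRCh38.p14, and all 9 genes matched by symbol. For BRCA1 and RAD51C, with 2 windows each, the window that holds the canonical start was used. Some results for single genes of the lists are not reported here.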

Additional observations from a re-analysis of the deposited data

Results flagged for a closer look

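The 7 results below are those in which a test of the difference itself found that the response of a gene differed between the lines (T-47D minus Ishikawa, log2 fold change, edgeR, Benjamini-Hochberg adjusted). At 4 h, BRCA1 differed by 0.33 (SE 0.097, adjusted p = 0.0466) and BARD1 by 0.49 (SE 0.111, adjusted p = 0.0095). At 8 h, BRCA1 differed by 0.48 (SE 0.0965, adjusted p = 0.00252), BARD1 by 0.48 (SE 0.11, adjusted p = 0.00697), XRCC2 by 0.79 (SE 0.161, adjusted p = 0.00265), BRIP1 by 0.44 (SE 0.119, adjusted p = 0.0226) and FANCA by 0.7 (SE 0.125, adjusted p = 0.000738). All 5 genes had the higher log2 fold change in T-47D, and for FANCA the estimates had opposite signs (0.37 in T-47D and -0.33 in Ishikawa). The 4 h result of BRCA1 did not pass under DESeq2 (adjusted p = 0.0504), RLE scaling (0.0753), a replicate block (0.0567) or a fit of only the groups compared (0.0628). Nor did it pass with the late Ishikawa libraries as 1 group (0.0607). With single libraries left out it ran from 0.28 to 0.38, and most of these fits lost the call. That of BARD1 at 4 h did not pass without T-47D 0 h replicate 2 (0.37, adjusted p = 0.0698). At 8 h BRIP1 did not pass without any of 5 single libraries, and BARD1 did not without T-47D 0 h replicate 2 (0.36). In a fit of only the groups compared, BARD1 (adjusted p = 0.0506) and BRIP1 (adjusted p = 0.0713) did not pass at 8 h.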

How the results depend on the processing

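The count of 8 genes higher in T-47D at 8 h ranged from 7 to 8 under other settings and from 6 to 8 with single libraries left out, and the 6 called at 0 h from 5 to 6 with single libraries left out. Replicate numbers did not pair the samples (correlations of deviations from -0.115 to 0.0533 in Ishikawa and -0.0547 to 0.0595 in T-47D), and with a replicate block 7 genes were called at 8 h in T-47D, 4 at 4 h, and 1 in the line difference at 4 h. Under the stricter threshold of 0.01 the T-47D counts were 1 at 4 h and 4 for 8 h against 2 h, that of Ishikawa at 8 h was 0, and that of the line difference at 4 h was 1. At 0.1 the counts were 1 for Ishikawa at 4 h, 1 for 8 h against 2 h, and 4 for the line difference at 4 h. Without the filter they were 1, 1 and 4, and 1 for T-47D at 2 h (BARD1). DESeq2 gave 1 for Ishikawa 8 h against 2 h and 1 for the line difference at 4 h, RLE scaling 1 for the latter, and fits of only the groups compared 1 for each of these and 3 for the line difference at 8 h. With Ishikawa 4 and 8 h as 1 group, planned for Ishikawa and added for the line difference after seeing the data, 1 gene was called at 4 h, and the uncalled 4 h values of BRCA2 and BARD1 became 0.03 and 0.06. The FANCD2 difference at 0 h was -0.01 with the block. The cause of these changes was not tested, beyond the thresholds themselves.

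With single libraries left out in turn, the count of genes called ran from 0 to 1 for Ishikawa at 4 h and for 8 h against 2 h, from 0 to 2 for Ishikawa at 8 h, from 0 to 1 for T-47D at 2 h, from 2 to 5 at 4 h, from 3 to 7 for 8 h against 2 h, and from 1 to 3 and 3 to 6 for the line difference at 4 and 8 h. A lone library left in a group was assumed to vary like the others. Uncalled values near 0 changed sign. In Ishikawa at 2 h these log2 fold changes ran from -0.16 to 0.06 (BARD1), -0.01 to 0.19 (PALB2), -0.08 to 0.06 (XRCC2) and -0.24 to 0.03 (FANCA). At 4 h they ran from -0.14 to 0.1 (BRCA2), -0.11 to 0.11 (BARD1), -0.03 to 0.17 (PALB2), -0.03 to 0.06 (RAD51C) and -0.05 to 0.01 (XRCC2). At 8 h they ran from -0.18 to 0.03 (BRCA1), -0.03 to 0.21 (BRCA2), -0.03 to 0.17 (PALB2), -0.01 to 0.19 (RAD51C) and -0.06 to 0.03 (XRCC2). In T-47D at 2 h they ran from -0.06 to 0.3 (XRCC2), -0.05 to 0.11 (BRIP1), -0.1 to 0.14 (FANCA) and 0 to 0.05 (FANCD2), and for FANCD2 between lines at 0 h from -0.01 to 0.02. No estimate for T-47D at 4 or 8 h changed sign under any setting. The 4 h calls of T-47D rested on few libraries, since the count was 2 without either 4 h library and 3 without either 0 h library.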
